A study of Mus musculus with 47 samples.

Results

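The major urinary protein (Mup) genes were followed in mouse liver through the 8 family members Mup1, Mup2, Mup3, Mup4, Mup5, Mup7, Mup20 and Mup21. A probe was taken for a member when the scanner files gave it that gene's name. This found 11 probes for 7 of the 8 genes, out of 56605 gene probes on the array, and Mup7 had none. Each member probe was well above background in all 47 mice, so all 11 are among the 32979 probes, standing for 21877 genes, that were tested. The array carried 10 further probes for 6 other genes with a Mup name, which brings the family to 21 tested probes.

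The mice were littermates on the C57BL/6J background bred from Pxr+/- parents. Pxr (gene name Nr1i2) encodes the pregnane X receptor, a nuclear receptor of the liver and gut that senses drugs, bile acids and other small molecules. Pxr-/- mice carry a germline deletion, so that every cell lacks the receptor, and Pxr+/+ littermates were the wild-type. Mice were kept apart by sex and genotype from 5 weeks of age and killed at about 6 months, 6 h into the light phase. ATB mice drank water with ampicillin at 1 g/L, neomycin at 1 g/L and vancomycin at 0.5 g/L for 2 weeks, and Cont mice drank plain water. The 8 groups of sex, genotype and treatment held 6 mice each, except the Pxr-/- Cont males with 5. Each group was housed in more than 1 cage, the cage of each mouse was not given, and the effect of the cage was not tested. RNA of each liver was labelled with 1 dye and hybridised to 1 array. Each array measured between 31087 and 34477 gene probes above background, and no gene probe was saturated. The mean log2 signal of 12 hepatocyte markers lay between 16.6 and 16.9 in every group. By mouse it ran from 16.611 to 16.769 in Pxr+/+ Cont males and from 16.78 to 17.011 in Pxr+/+ Cont females, without overlap.

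Mup genes form a dense cluster of recent duplicates. They encode small secreted lipocalins, barrel-shaped proteins with a pocket for volatile molecules. In the mouse they are made mainly by hepatocytes, pass through the blood into the urine, and release the pheromones they carry slowly from scent marks. Mup20, known as darcin, is itself a pheromone that makes a male's scent attractive to females. Hepatic Mup transcription is a classical readout of the pulsatile growth hormone pattern of males, which acts through STAT5b, and it also answers to testosterone, thyroid hormone, glucocorticoids and nutrition.

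All 11 member probes lie on chromosome 4 of the mm9 build, between 59969824 and 61809669, a span of 1.84 Mb. They are named here by the gene and, in brackets, the base of the transcript at which the files place the 60-base probe. The file lists at most 4 transcript accessions per probe, and these already show that a probe's name is not a guarantee of its target. The Mup1 (459) probe also lists transcripts of Mup2 and Mup19. The Mup21 (455) probe lists Mup1, Mup2 and Mup19 beside Mup21. The Mup2 (679) probe lists Mup1 and Mup2. The probes of Mup4, Mup5 and Mup20, together with Mup21 (695), Mup3 (549) and Mup3 (831), list no gene but their own. Mup3 (1435) lists cDNA clones and no RefSeq gene, and it was dim.

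The letters show how little separates the paralogs. Mup20 (314), at chr4:61713671-61713730 on the minus strand, is shown with Mup6 (207), a probe of a family member outside the list that lies within chr4:60016964-60017725 on the plus strand. They share 27 bases with 1 difference, in capitals, and 96.3% identity over that stretch:
Mup20 (314): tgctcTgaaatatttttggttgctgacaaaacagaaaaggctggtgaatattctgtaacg
Mup6 (207): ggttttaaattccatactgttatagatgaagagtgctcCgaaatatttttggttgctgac

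A shared 30-base stretch of the probes Mup20 (688), Mup4 (669) and Mup-ps16 (2124), the last of which belongs to a pseudogene, is shown because Mup20 (688) gave the largest sex difference of the members. Mup4 and Mup-ps16 each differ from Mup20 at 2 bases, in capitals:
Mup20 (688): gatctgctttccatcGtgtctTacagagaa
Mup4 (669): gatctgctttccatcCtgtctCacagagaa
Mup-ps16 (2124): gatctgctttccatcAtgtctCacagagaa

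Over their whole shared stretches, Mup4 (669) and Mup-ps16 (2124) were 91.5% identical, Mup20 (688) and Mup-ps16 (2124) 89.1%, and Mup4 (669) and Mup20 (688) 86.5%. Transcripts of 1 gene can therefore bind the probe of another. How much they did so was not tested, and each value below is that of a probe rather than of a single gene.

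Male livers gave more Mup signal than female livers with 10 of the 11 member probes, in both genotypes and with or without ATB. Taking the probe with the largest difference of each gene, Mup20, the darcin gene, showed the widest gap, followed by Mup21 and Mup5. This order depended on the probe. In Pxr+/+ Cont mice Mup20 (314) gave 1.29 and Mup21 (455) 0.71, both below Mup5 at 2.13. Mup1, Mup2 and Mup3 were higher in males by smaller amounts, and Mup4 by the least. Only the dim Mup3 (1435) probe was lower in males.

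Mup20 (688) separated the sexes completely. In Pxr+/+ Cont mice the normalised log2 signal ran from 18.09 to 18.365 in males, with a median of 18.272, and from 13.971 to 15.029 in females, with a median of 14.863. No male came near any female, and the difference was 3.58 ± 0.13 on the log2 scale (SE, n = 6 per sex), or 11.9-fold, with limma's adjusted p = 1.75e-25. It was 3.92 in Pxr+/+ ATB mice, 3.39 in Pxr-/- Cont mice and 3.48 in Pxr-/- ATB mice. The 5 Pxr-/- Cont males had log2 signals of 18.362, 18.392, 18.248, 18.064 and 18.222, which spanned the range of the Pxr+/+ Cont males. The second probe for the same gene, Mup20 (314), gave a sex difference of 1.29 ± 0.14 (SE) in Pxr+/+ Cont mice, so the size of the gap depended on the probe.

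Mup21 showed the same split between its probes. With Mup21 (695), Pxr+/+ Cont males ran from 16.217 to 16.542 with a median of 16.424, and females from 13.416 to 14.9 with a median of 14.202. The sexes did not overlap, and the difference was 2.26 ± 0.17 (SE, n = 6 per sex; adjusted p = 3.4e-14 in limma). With Mup21 (455), the probe that also lists Mup1, Mup2 and Mup19, the same males and females differed by 0.71 ± 0.11 (SE), close to the 0.77 ± 0.12 of Mup1 (459). With that Mup1 probe, Pxr+/+ Cont males ran from 18.237 to 18.457 (median 18.36) and females from 17.139 to 18.1 (median 17.564), again without overlap.

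Mup5, a member known also from salivary glands, ranged from 17.033 to 17.524 (median 17.359) in Pxr+/+ Cont males and from 14.374 to 16.314 (median 15.154) in females. The highest female lay below the lowest male by less than the range of the females. The difference was 2.13 ± 0.24 (SE), or 4.38-fold, with adjusted p = 2.6e-09 in limma. It was 1.63 in Pxr-/- Cont mice and 1.61 in Pxr-/- ATB mice.

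Mup2 (679) was the bright member probe whose sexes overlapped in Pxr+/+ Cont mice. Males ran from 17.678 to 18.185 (median 18.0) and females from 16.163 to 17.685 (median 16.768). One female (replicate 4) lay just above the lowest male. The difference was 1.16 ± 0.18 (SE; adjusted p = 3.7e-06 in limma). In Pxr-/- mice it was 0.62 in Cont and 0.64 in ATB.

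With Mup3 (549), Pxr+/+ Cont males ran from 17.415 to 17.635 (median 17.535) and females from 15.664 to 16.724 (median 16.42). Its bright probes gave similar differences, 1.24 ± 0.13 with Mup3 (549) and 0.94 ± 0.11 with Mup3 (831) in Pxr+/+ Cont mice (SE, n = 6 per sex). Mup3 (1435) ran the other way by -0.39 ± 0.11 (adjusted p = 0.0087 in limma), from log2 signals of 7.069 to 7.482 in males and 7.491 to 8.095 in females. Mup4, which binds a different set of odorants from the other members and is also made in nasal glands, ran from 17.155 to 17.388 (median 17.242) in Pxr+/+ Cont males and from 16.49 to 17.089 (median 16.904) in females. The sexes did not overlap, and males were higher by 0.42 ± 0.09 in Cont and 0.50 ± 0.09 in ATB. In Pxr-/- Cont mice Mup4 ran from 17.199 to 17.488 in males and from 16.944 to 17.318 in females, which overlapped. The difference was 0.23 in Pxr-/- Cont (adjusted p = 0.0997) and 0.16 in Pxr-/- ATB (adjusted p = 0.17), neither of which passed the test. Both depended on the processing. Over the alternatives run they reached 0.43 and 0.41, with lowest adjusted p of 0.0017 and 0.0014 in limma, and 1 alternative in each passed.

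**Figure D1:**
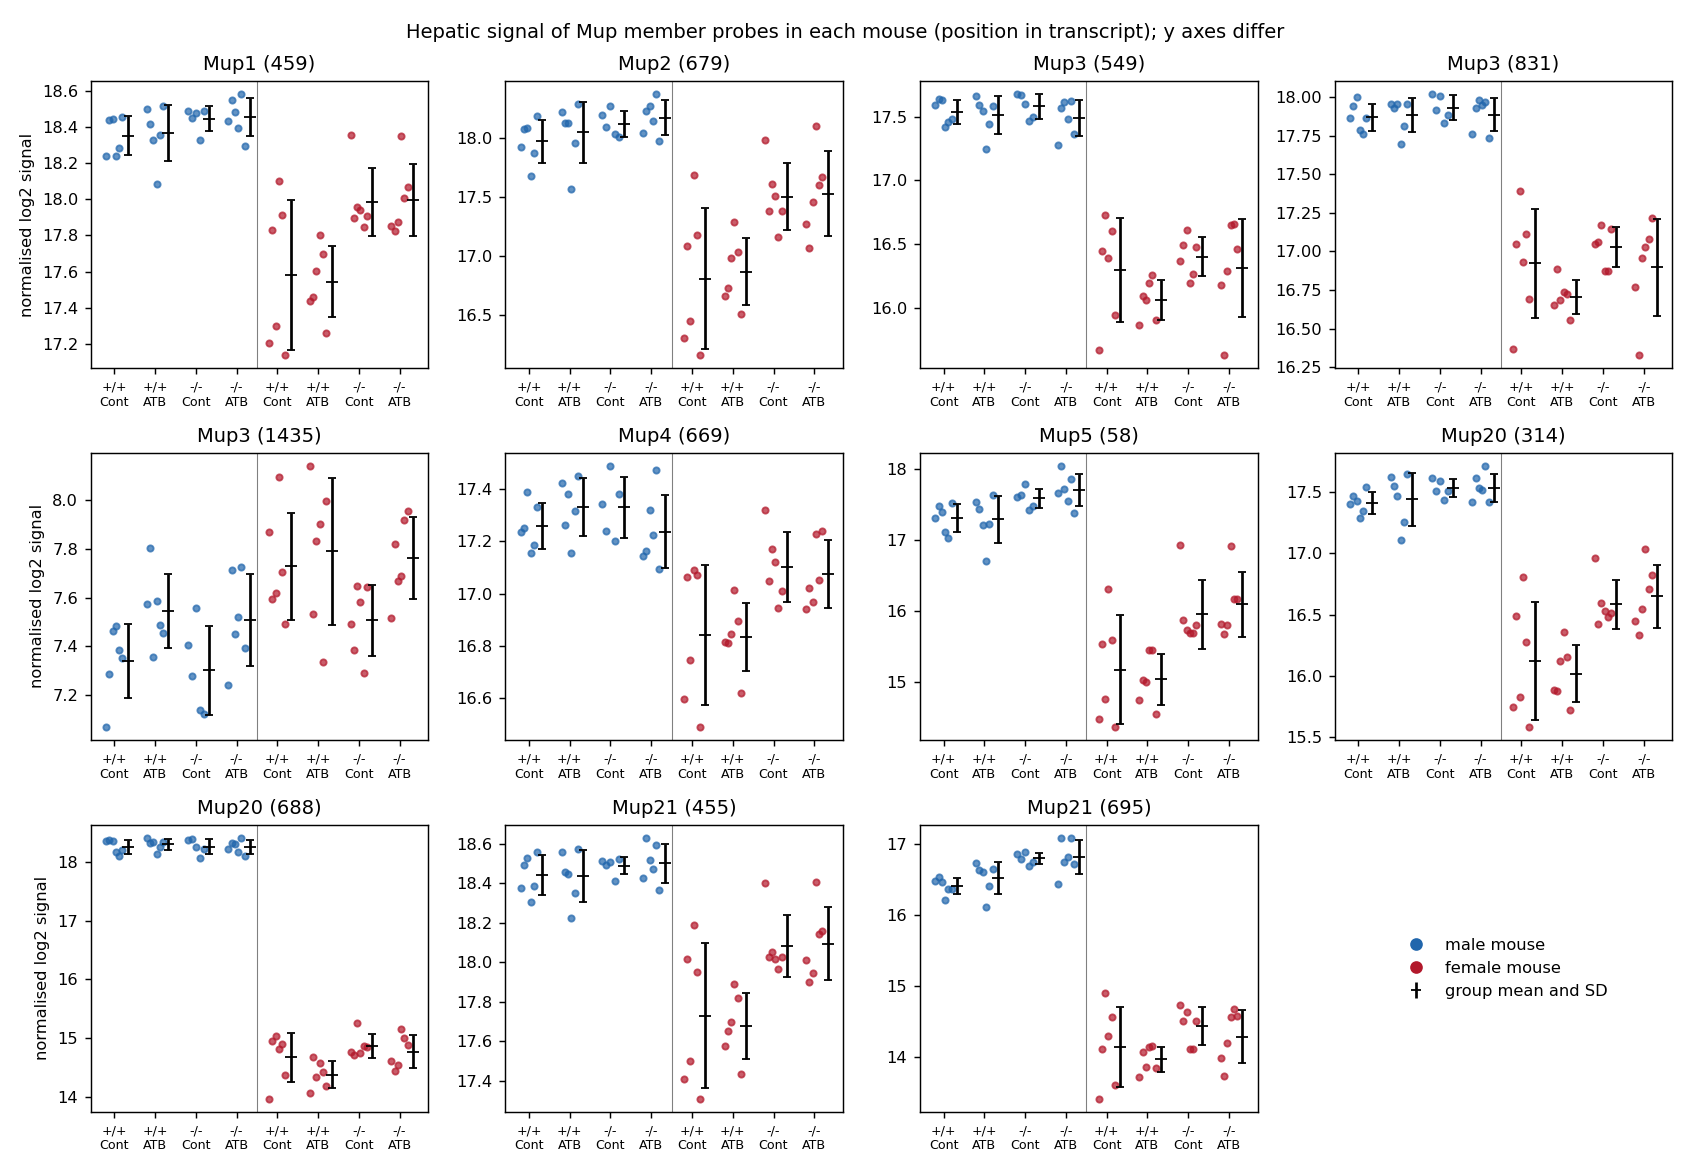
Normalised log2 signal (y axes, which differ between panels) of each of the 11 member probes in each mouse, by genotype and treatment (x axes), males in blue and females in red, with the mean and SD of each group as black bars. The male groups of Mup20 (688) sit near 18.3 and the female groups between 14.4 and 14.9, while the dim Mup3 (1435) probe lies below 8.2 in every mouse.

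A member was called when 1 of its probes passed a limma adjusted p of 0.05 and a fold of 1.2. By that rule 7 of the 7 measured members were higher in males in Pxr+/+ Cont mice, where 2.51% of all genes were. In Pxr+/+ ATB mice 7 of 7 were, against 4.17% of all genes. In Pxr-/- Cont and in Pxr-/- ATB mice 6 of 7 were, all but Mup4, against 2.88% of all genes in each. Called lower in Pxr+/+ Cont males was 1 member, Mup3 through its dim probe, where 34.1% of all genes were lower. Every male lay above every female with 9 of the 11 member probes in Pxr+/+ Cont mice, with 10 in Pxr+/+ ATB, 8 in Pxr-/- Cont and 6 in Pxr-/- ATB. Over all probes tested the share was 0.979%, 2.15%, 1.39% and 1.26%.

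The median difference of the 11 member probes was 1.16, 1.18, 0.90 and 0.89 in the same order of settings, and that of all probes was -0.20, -0.03, -0.12 and -0.18, so that the members lay 1.36, 1.21, 1.02 and 1.06 above the shift of all probes. Quantile normalization moved the latter to 0.02, 0.023, 0.015 and 0.007, and the member counts stayed at 7, 7, 6 and 6. Within each of the 3 washing batches of the arrays 10 or 11 of the 11 member probes were higher in males in each setting, although the smallest batch held 1 mouse per group.

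**Figure D2:**
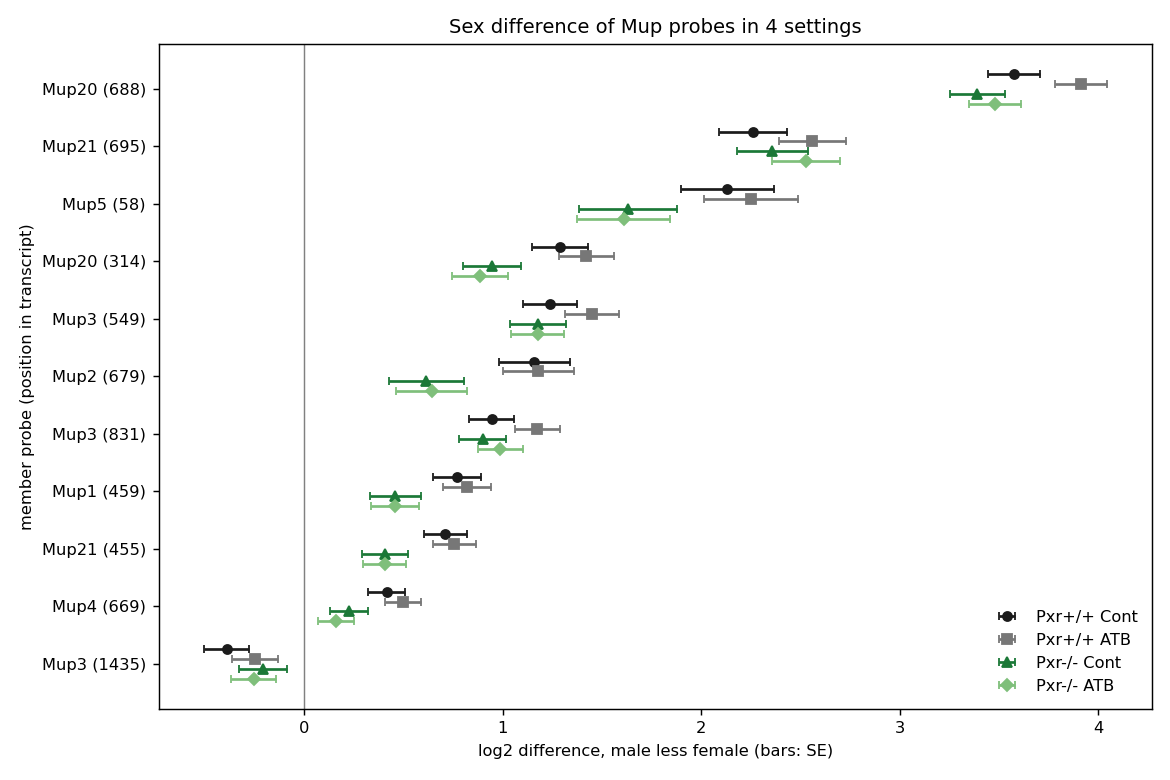
Log2 difference of male less female (x axis, bars are the SE) for each member probe (y axis) in the 4 settings of genotype and treatment. Mup20 (688) lies between 3.39 and 3.92 in all settings and Mup3 (1435) below 0, and Mup2 lies at 1.16 and 1.18 in Pxr+/+ mice and at 0.62 and 0.64 in Pxr-/- mice.

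The size of the sex difference went with how bright a probe was in females. Mup1 (459) and Mup21 (455) ranked 12 and 9 in brightness among 32979 probes in Pxr+/+ Cont males and 77 and 55 in females. Mup20 (688) ranked 17 in males and 1008 in females. Mup19 (684), outside the member list, ranked 10 in males and 18 in females, with a difference of 0.19. Over the 14 Mup-named probes with a mean log2 signal above 13 in Pxr+/+ Cont females, the sex difference and that signal had Pearson's r of -0.907 and Spearman's rho of -0.938. The limit of 13 was chosen after the values were seen, the female mean enters both measures, and over all 21 Mup-named probes r was 0.016 and rho -0.166. Brightness also depends on how well a probe binds, so it does not order the genes by transcript level. The highest median signal on any array was 566012, under the lowest saturation value of 778591. Whether the brightest probes respond in proportion to their RNA was not tested.

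**Figure D3:**
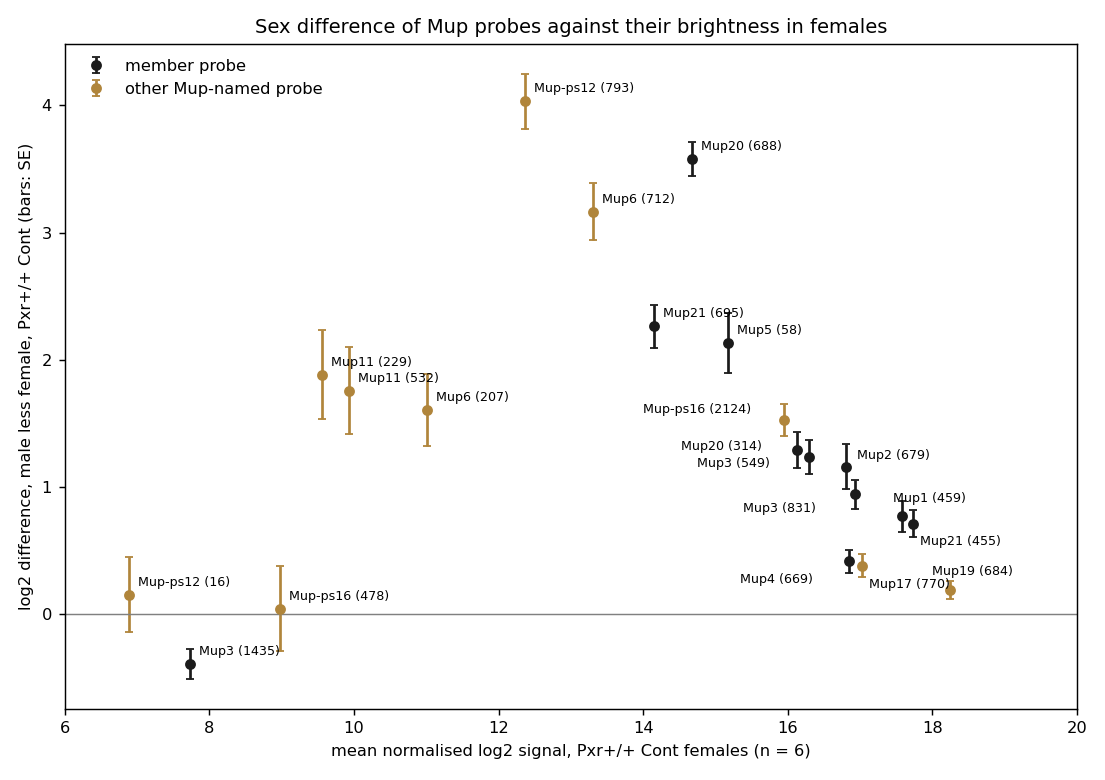
Log2 difference of male less female in Pxr+/+ Cont mice (y axis, bars are the SE) against the mean normalised log2 signal in females (x axis) for the 11 member probes (black) and the 10 other Mup-named probes (brown). Mup20 (688) lies at 3.58, Mup3 (831) at 0.94 and the brighter Mup21 (455) at 0.71, while Mup4 at 0.42 lies below brighter member probes and the dim probes at the left do not follow the order.

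The other Mup-named probes ranged from 0.04 with Mup-ps16 (478) to 4.03 with Mup-ps12 (793) in the same comparison. Mup6 (712) was higher in males by 3.16 and Mup6 (207) by 1.60, again a gap between the probes of a single gene. The Mup11 probes gave 1.88 and 1.76.

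Liver genes known to be male-biased were set beside the Mup genes, so a higher signal in males followed from their choice. Of 15 such genes, among them Cyp4a12a, Hsd3b5 and Elovl3, 12, 13, 13 and 13 were higher in males in the 4 settings, with medians of 2.97, 3.45, 3.58 and 3.41. Of 15 female-biased genes, among them Cyp2b13 and Sult3a1, 15, 14, 15 and 15 were lower in males. Of 28 genes of growth hormone signalling and Mup regulation, 16 were lower in Pxr+/+ Cont males, where 34.1% of all genes were lower, and 8, 9 and 10 in Pxr+/+ ATB, Pxr-/- Cont and Pxr-/- ATB males, where 10.2%, 15.8% and 27.4% of all genes were. Higher in males was 1 gene in each of the first 3 settings, Bcl6 (a repressor of female-biased genes) in Pxr+/+ Cont and Cebpa in the others, and 0 in Pxr-/- ATB. The lower ones in Pxr+/+ Cont included the transducers Stat5a and Stat5b and the feedback inhibitors Socs2 and Cish. Of 11 other lipocalins of the liver, Obp2a was higher in Pxr+/+ Cont males, and 5 (Apom, Lcn2, Orm1, Orm3 and Ptgds) were lower. In the other settings 2, 4 and 2 of the 11 were lower. These lists were assembled with earlier results of these data known.

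Of 12 hepatocyte markers, 3, 1, 3 and 4 were lower in males in the 4 settings and 0 were higher. Of all genes 34.1%, 10.2%, 15.8% and 27.4% were lower. Non-hepatocyte markers also differed between the sexes. Of 12 macrophage markers, 10 were lower in Pxr+/+ Cont males and Csf1r was called both ways by different probes, with a list median of -1.08. In Pxr+/+ ATB males 6 were lower, in Pxr-/- Cont males 5 and in Pxr-/- ATB males 0, with medians of -0.75, -0.65 and -0.14 and with Csf1r called higher in each. In Pxr-/- ATB males T and NK cell markers and stellate and fibroblast markers were lower, as given below. The mean macrophage signal of a mouse ran from 10.091 to 10.54 in Pxr+/+ Cont males and from 11.063 to 11.99 in females. Of 7 T and NK cell markers, 6 were lower in males in each setting. Sinusoidal endothelial markers were lower in Pxr+/+ Cont males in 5 of 8 and in the other settings in 1, 3 and 2 of 8, and stellate and fibroblast markers in 6 of 8 and in 1, 0 and 5 of 8. In whole liver, fewer cells of a type and less RNA per cell cannot be told apart, and the part these markers have in the Mup differences was not tested.

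In females, Mup2 was called higher in Pxr-/- than in Pxr+/+ livers in Cont mice, and Mup5 and Mup20 in ATB mice. Mup20 was called with Mup20 (314) and not with Mup20 (688). Of the 7 measured members 1 and 2 were called in those single comparisons, where 0.238% and 0.178% of all genes were called higher. These calls were lost without 1 of several mice or with only the groups compared in the fit, as given below. In the average of Cont and ATB females 5 members were called, against 0.567% of all genes. This average was added after the single comparisons had been seen. The dim Mup3 (1435) probe had differences of -0.22 and -0.03, and neither bright Mup3 probe passed the test.

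Mup2 was called in Cont females. Its log2 signal ran from 16.163 to 17.685 (median 16.768) in Pxr+/+ and from 17.161 to 17.988 (median 17.444) in Pxr-/- females. The ranges overlapped through 2 bright Pxr+/+ females, and the difference was 0.69 ± 0.18 (SE, n = 6 per genotype), or 1.62-fold, with adjusted p = 0.026 in limma. With only the groups compared in the fit this call was lost (adjusted p = 0.18). In ATB females the Mup2 difference was 0.66 ± 0.18, with adjusted p = 0.21.

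Mup5 was called in ATB females. It ran from 14.554 to 15.454 (median 15.022) in Pxr+/+ and from 15.682 to 16.922 (median 16) in Pxr-/- ATB females. The genotypes did not overlap, and the difference was 1.05 ± 0.24 (SE), or 2.08-fold, with adjusted p = 0.036 in limma. In Cont females it ran from 14.374 to 16.314 and from 15.697 to 16.933 in the same order. These ranges overlapped, with a difference of 0.78 ± 0.24 and adjusted p = 0.054. The Mup5 call in ATB females was lost with the processed signal, without the filter on dim probes, without the washing batch and with only the groups compared, where the highest adjusted p was 0.081.

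Mup20 (314) was called in ATB females too, by 0.63 ± 0.14 (SE; adjusted p = 0.035 in limma). Its log2 signal ran from 15.725 to 16.355 (median 16) in Pxr+/+ and from 16.332 to 17.034 (median 16.626) in Pxr-/- ATB females, which overlapped narrowly. The call was lost under the same 4 settings and with the replicate block, and the highest adjusted p among these 5 settings was 0.19. Mup20 (688), with the largest sex difference, differed between these groups by 0.39 ± 0.13 with adjusted p = 0.60.

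The genotypes of ATB females were also apart with Mup1 and with Mup21 (455), although neither passed the adjusted p. Mup1 ran from 17.259 to 17.803 (median 17.534) in Pxr+/+ and from 17.825 to 18.352 (median 17.943) in Pxr-/- ATB females, a difference of 0.45 ± 0.12 (SE; adjusted p = 0.20 in limma). Mup21 (455) ran from 17.434 to 17.893 (median 17.673) and from 17.9 to 18.407 (median 18.08), a difference of 0.42 ± 0.11 (adjusted p = 0.17). Mup21 (695), which lists no other gene, ran from 13.728 to 14.161 and from 13.738 to 14.681, and here the genotypes overlapped.

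By the same rule 1 of 7 members was called higher in Pxr-/- Cont females, where 0.238% of all genes were, and 2 of 7 in Pxr-/- ATB females, where 0.178% were. No member was called lower. At an unadjusted limma p of 0.05, 6 of the 11 member probes passed in Cont females and 7 in ATB females, against 21.0% and 4.96% of all probes. Averaged over Cont and ATB, 5 of 7 members were higher in Pxr-/- females, against 0.567% of all genes. These were Mup5 by 0.92 ± 0.17, Mup2 by 0.68 ± 0.13, Mup20 (314) by 0.54 ± 0.10, Mup1 by 0.43 ± 0.09 and Mup21 (455) by 0.38 ± 0.08 (SE, n = 12 per genotype), with adjusted p between 0.00095 and 0.0030 in limma. Mup4 passed the test but not the fold limit, at 0.25 ± 0.06. The other probes of Mup20 and Mup21 were not called in this average, Mup20 (688) at 0.29 and Mup21 (695) at 0.31. The Mup21 (455) probe also lists transcripts of Mup1, Mup2 and Mup19. The 5 called probes varied together from mouse to mouse, with correlations within 0.812 to 0.983, as given below. They are therefore not 5 separate results.

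The washing batches did not agree on the Cont females. In the batch with 3 mice per genotype 10 of the 11 member probes were higher in Pxr-/- females, with a median of 0.49. In the batch with 2 per genotype none was, with a median of -0.11, and the Pxr+/+ females there were the replicates 4 and 5, the brightest of their group for Mup2. In the batch with 1 per genotype 11 of 11 were higher, with a median of 0.72. In ATB females 8, 11 and 10 of 11 were higher in the 3 batches, with medians of 0.20, 0.46 and 0.97.

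The calls in single groups moved with the mice included. Leaving out 1 mouse at a time changed the count of called members between 0 and 5 of 7 in Cont females and between 0 and 2 in ATB females. Without the female Pxr+/+ Cont replicate 4 the count in Cont females was 5, and it was 0 without the Pxr+/+ Cont replicate 1, 3 or 6 or the Pxr-/- Cont replicate 1 or 2. In ATB females it was 0 without the Pxr+/+ ATB replicate 1, 2, 3 or 6 or the Pxr-/- ATB replicate 4, 5 or 6. The average over Cont and ATB kept 5 or 6 called members whichever mouse was left out.

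**Figure D4:**
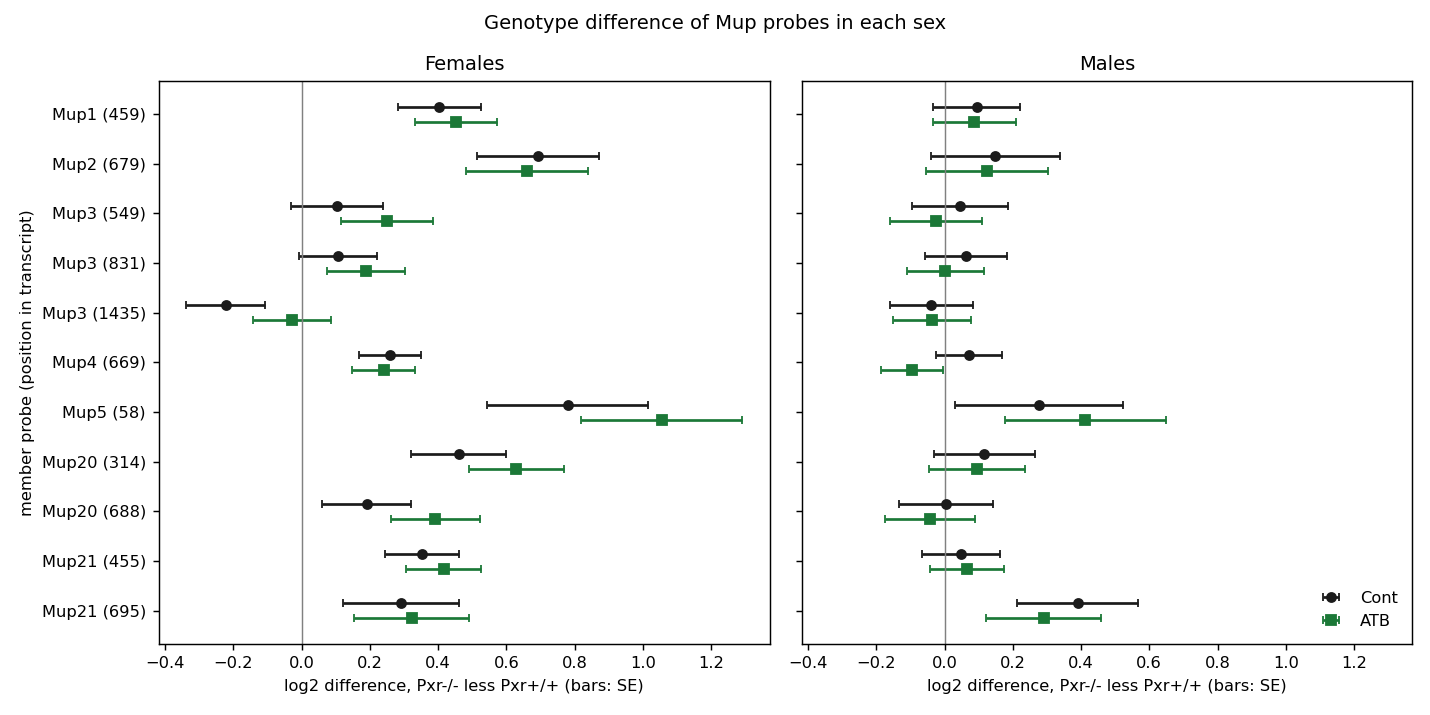
Log2 difference of Pxr-/- less Pxr+/+ (x axes, bars are the SE) for each member probe (y axis) in females (left) and males (right), in Cont mice (black circles) and ATB mice (green squares). In females Mup5 lies at 0.78 and 1.05 and Mup2 at 0.69 and 0.66, and in males all values lie between -0.10 and 0.41.

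In males, no member was called between the genotypes, either in Cont mice, where 0.16% of all genes were called higher, or in ATB mice, where 0.338% were. At an unadjusted limma p of 0.05, 1 member probe passed in Cont males and 0 in ATB males, against 4.84% and 22.9% of all probes. That probe was Mup21 (695). The 5 Pxr-/- Cont males had log2 signals of 16.868, 16.794, 16.885, 16.701 and 16.753, and the Pxr+/+ Cont males ran from 16.217 to 16.542. The groups did not overlap, but the difference of 0.39 ± 0.18 had adjusted p = 0.997. Higher without overlap in Pxr-/- males were 1 member probe in Cont and 0 in ATB mice, against 0.282% and 0.261% of all probes. Averaged over Cont and ATB males 0 of 7 members were called, against 0.526% of all genes higher, and 2 probes passed the unadjusted p, against 19.7% of all probes.

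The Pxr effect was not shown to differ between the sexes. For Mup2 the effect in males less that in females was -0.54 ± 0.26 in Cont mice (95% interval -1.07 to -0.02, adjusted p = 0.97 in limma). For Mup5 it was -0.50 ± 0.34 in Cont mice and -0.64 ± 0.33 in ATB mice, and for Mup1 -0.31 ± 0.18 and -0.36 ± 0.17, with adjusted p of 0.49 or more. No member was called in Cont mice, where 0.0229% of all genes were, or in ATB mice, where 0.0503% were. At an unadjusted p of 0.05, 1 and 6 of the 11 member probes passed, against 4.82% and 10.2% of all probes. In ATB mice the median of this difference was -0.35 over the member probes and -0.14 over all probes.

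Some other liver genes that differ between the sexes were also called between the genotypes in females. Over the average of Cont and ATB, 0.567% of all genes were higher in Pxr-/- females and 2.41% were lower. Among the 15 male-biased genes, 0 were higher and 1, the complement gene C6, was lower. Of the 15 female-biased genes, 2 (Sult2a1 and Sult2a2) were higher and 2 (Cux2 and A1bg) were lower. Of the 28 growth hormone and Mup regulator genes, 5 (Socs1, Socs2, Igf1, Igfals and Cux2) were lower and 0 were higher. Of the 11 other lipocalins 0 were called.

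Markers of other liver cells were lower in Pxr-/- Cont females, where 3.88% of all genes were lower. Of 12 macrophage markers, 8 were lower, with a list median of -0.95 and mean signals of a mouse from 10.093 to 10.754, against 11.063 to 11.99 in Pxr+/+ Cont females. In ATB females 0 of 12 were called, with a median of -0.43 and signals of 9.828 to 10.852 against 9.764 to 11.608. In Pxr-/- Cont females 4 of 8 sinusoidal endothelial markers (median -0.57) and 2 of 5 neutrophil markers (median -0.38) were lower too, and 0 of each in ATB females. The part of these cells in the Mup difference was not tested. The 12 hepatocyte markers had 0 calls in females in either treatment, with medians of -0.07 and -0.09. The probe of Nr1i2 itself was lower in Pxr-/- mice by 0.28 to 0.57 in the 4 comparisons with adjusted p of 0.085 or more in limma. Where that probe lies relative to the deleted exons is not given in the sources used here, so it does not check the genotype labels.

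No member passed the test for ATB in either sex or genotype. None was called in Pxr+/+ males, where 1.31% of all genes were called in either direction, in Pxr-/- males (0.11%), in Pxr+/+ females (0.0183%) or in Pxr-/- females (0.0411%). At an unadjusted limma p of 0.05 the number of member probes was 0, 0, 1 and 1 in that order, against 18.2%, 6.71%, 10.4% and 11.8% of all probes. Mup20 (688) is given as an example: in Pxr+/+ males its log2 signal ran from 18.09 to 18.365 in Cont and from 18.136 to 18.403 in ATB. In Pxr+/+ females it ran from 13.971 to 15.029 in Cont and from 14.076 to 14.672 in ATB. Its difference there, -0.30, was the furthest from 0 of the 11 probes, whose median was -0.10. The ATB mice lay within or close to the range of the Cont mice in both sexes. All 11 differences lay between -0.02 and 0.20 in Pxr+/+ males and between -0.30 and 0.06 in Pxr+/+ females. In Pxr-/- mice they lay between -0.09 and 0.21 in males and between -0.15 and 0.26 in females. The 95% intervals of these differences lay between -0.61 and 0.62 over the 11 probes and 4 comparisons.

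Tests of whether the ATB effect depended on sex or genotype gave no member call either. This held for sex in Pxr+/+ mice (0.0457% of all genes called) and in Pxr-/- mice (0.00457%), and for genotype in males (0.0183%) and in females (0%). At an unadjusted limma p of 0.05, 0 member probes passed in each of these 4 tests, against 13.1%, 5.19%, 5.6% and 10.2% of all probes.

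The SD was higher in females than in males in 40 of the 44 pairs of a member probe and a setting of genotype and treatment. The exceptions were Mup3 (1435) in Pxr-/- Cont and Pxr-/- ATB mice, Mup4 in Pxr-/- ATB and Mup21 (695) in Pxr+/+ ATB, and the difference in spread was not tested. The same share over all probes was not counted. The 44 pairs are not separate, since the probes were read in the same mice and vary together, as given below. The SD of a female group lay between 0.109 and 0.763 over the 11 probes, and that of a male group between 0.043 and 0.333. Mup5 varied most, with a highest SD of 0.763 in females and 0.333 in males. Mup21 (455), 1 of the brightest probes, had male SDs of 0.043 to 0.132.

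Mice that were high for 1 member tended to be high for the rest. After the group mean and the washing batch had been removed, the 45 pairs of the 10 bright member probes had Pearson correlations of 0.437 to 0.983 over the 47 mice, with a median of 0.608. The dim Mup3 (1435) probe had -0.048 to 0.229 with the others. Probes of 1 array share its dye labelling and normalization, and probes of near-identical sequence share targets, so these are descriptions. The mean deviation of a mouse over the member probes ran from -0.455 to 0.424 in females (SD 0.232, n = 24) and from -0.279 to 0.17 in males (SD 0.114, n = 23). Females stood highest as Pxr+/+ Cont replicate 4, Pxr-/- ATB replicate 4 and Pxr-/- Cont replicate 1, and lowest as Pxr+/+ Cont replicates 1 and 6.

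The deviations fell into 2 blocks, which were drawn after the correlations had been seen. Mup1, Mup2, Mup4, Mup5, Mup20 (314) and Mup21 (455) correlated with each other at 0.812 to 0.983, with a median of 0.953. Mup3 (549), Mup3 (831), Mup20 (688) and Mup21 (695) did so at 0.784 to 0.925, with a median of 0.874. Between the blocks the 24 correlations were 0.437 to 0.628, with a median of 0.573. The probes of Mup20 thus fell in different blocks, with a correlation of 0.577 between them, and so did those of Mup21, with 0.585. The female Pxr+/+ Cont replicate 3 shows the split. Her log2 signal was 14.9 with Mup21 (695), the highest of her group, and 16.45 with Mup2, where 3 of the 5 others were higher. The members called between the genotypes in females had all of their called probes in the first block.

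**Figure D5:**
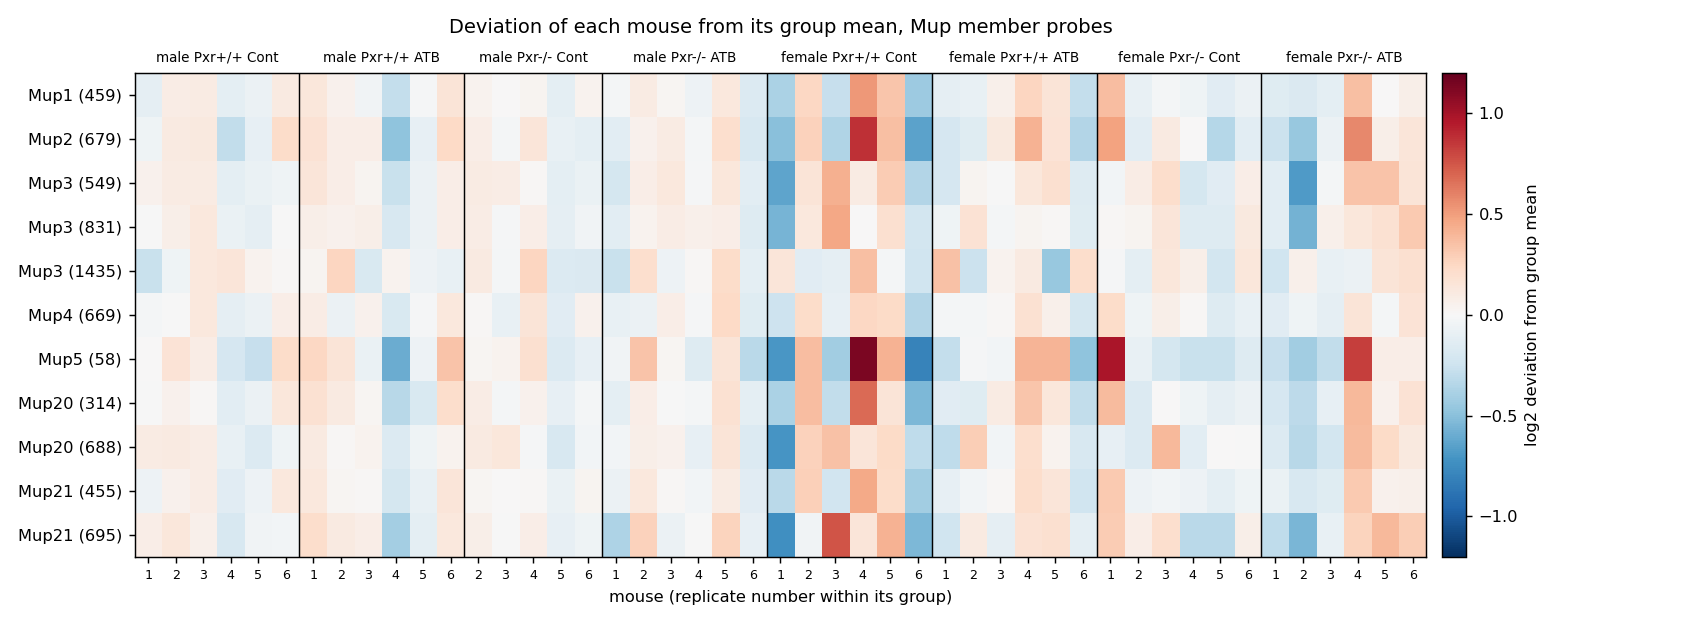
Deviation of each mouse (x axis, by group and replicate number) from its group mean, washing batch removed, for each member probe (y axis), on a log2 colour scale with red above and blue below the group mean. The female columns are deeper in colour than the male ones (SD of the mean deviation 0.232 against 0.114), and the female Pxr+/+ Cont replicate 3 is red for Mup3 (549), Mup3 (831), Mup20 (688) and Mup21 (695) and blue for Mup1, Mup2, Mup5 and the dim Mup3 (1435).

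The probes without a Mup name that followed the members most closely were taken as the 5 highest correlations with the mean deviation of the member probes over the 47 mice. Of these, 4 were probes named only by an Ensembl transcript, all lying within the Mup cluster on chromosome 4, with r of 0.934, 0.888, 0.879 and 0.811. Whether these 4 bind transcripts of the family was not tested. The other was a probe named Pax2, a developmental transcription factor of kidney and eye, with r = 0.84 over all mice, 0.829 in the 23 males and 0.882 in the 24 females. Just outside the rule, ranks 6 to 11 held another Ensembl transcript of the cluster (0.759), 2 probes named only by an interval of chromosome 14 (0.753 and 0.711) and, named after the values were seen, 3 probes of Dio1, the enzyme that activates thyroid hormone in liver. The Dio1 probes had r of 0.738, 0.735 and 0.708 over all mice, 0.607, 0.592 and 0.589 in males and 0.794, 0.793 and 0.767 in females.

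Promoter sequences of RefSeq (GRCm38.p6) covered 5 of the 8 members, Mup2, Mup3, Mup4, Mup7 and Mup21, each with 250 bases before and 50 after the start. They were compared without gaps at the best small shift, so inserted bases or a start placed elsewhere lower the value. The promoters of Mup3 and Mup21 were 74.8% identical, those of Mup3 and Mup4 71.3% and those of Mup4 and Mup21 69.6%. Mup2 shared 51.7% with Mup4, 44.0% with Mup3 and 45.2% with Mup21. Mup7 shared 30.5% to 32.8% with the others, and an alignment with gaps was not made. Searched on both strands, none held the STAT5 letters TTCNNNGAA, which 8.5% of the 27025 promoters of this length hold, nor TTGNNNCAA, which 5.9% hold. The letters TATAAA were found in the promoter of Mup4, 27 bases before the start, and in 14.2% of all promoters. These matches describe a 300-base window only.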

How the data were processed

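Liver RNA of 47 mice was hybridised to 1-colour Agilent 60-base arrays, 8 to a slide, on 6 slides washed in 3 batches. The authors scanned the arrays with Feature Extraction (10.10.1.1, per the labels) and deposited spot intensity values, whose median signals were used here. As in the study's methods, the washing batch was removed from the log2 values and these were normalised by CrossNorm. The 300 draws of CrossNorm and the batch as a term of the model were chosen here. The filter on dim probes asked for a signal well above background on 5 arrays or more of at least 1 of the 8 groups. In addition, 422 non-uniform spot values were left out, and 1535 probes were renamed through their RefSeq accession. The authors also deposited a table of processed log2 values, used as an alternative. No column of the authors' comparisons was used.

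The 8 groups were fitted together with limma (3.58.1 in R 4.3.3). Adjusted p-values are limma's with the Benjamini-Hochberg method over all 32979 probes, and a call needs an adjusted p of 0.05 and a fold of 1.2. A gene was called through any of its probes. The fit was tested on simulated data. The sequence of 1 probe pair is not reported here. Sequences and counts were handled in Python (3.11.15, pandas 2.3.3). Reported were all members, other Mup-named probes as ranges, the gene lists as counts, and the 5 probes without a Mup name most like the members. Members and lists were chosen with earlier results of these data known. The number of arrays limits the precision, and p-values measure the spread between single mice. Alternatives changed the normalization, the filter on dim probes, the batch terms, the groups fitted and the mice included.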

Additional observations from a re-analysis of the deposited data

Results flagged for a closer look

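Each of the 11 member probes was searched in each of the 8 groups for a mouse far from its group, 88 searches in all. In 7 of them the highest or the lowest mouse stood apart from the nearest of the others by more than Dixon's 95% limit, and chance gives about 1 in 20 groups. The female Pxr-/- Cont replicate 1 was high with 4 probes. Her log2 signal was 16.933 with Mup5, where the next mouse had 15.873. It was 18.356 with Mup1 (next 17.959), 18.4 with Mup21 (455) (next 18.053) and 16.965 with Mup20 (314) (next 16.59). The female Pxr-/- Cont replicate 3 was high with Mup20 (688), at 15.257 against 14.867. The male Pxr-/- Cont replicate 5 was low with Mup1, at 18.326 against 18.448, and with Mup21 (455), at 18.415 against 18.494. The Mup1 (459) and Mup21 (455) probes both list transcripts of Mup1, Mup2 and Mup19.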

How the results depend on the processing

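The sex counts of 7, 7, 6 and 6 called members stayed within 1.5 times under all alternatives run, as did the counts of 0 for ATB, for genotype in Cont or ATB males and for the interactions. Mup4 gained a call as higher in males under 1 alternative in Pxr-/- Cont and under 1 in Pxr-/- ATB mice. The average over Cont and ATB kept 5 or 6 called members in females and went from 0 to 2 in males with only the groups compared. The counts that moved were those for genotype in females. In Cont females the count of 1 became 2 with quantile normalization, 5 with the processed signal less its 75th percentile, 3 with normexp and quantile normalization, 4 with the authors' processed values and 0 with only the groups compared in the fit. In ATB females the count of 2 became 5, 0, 5 and 5 under the same normalizations, and 0 with no filter on dim probes, no washing batch or only the groups compared. With the replicate number as a replicate block it was 1. Replicate numbers only name the mice: of 161 same-numbered pairs from different groups 35 had a correlation of deviations over 0.1 (median -0.051). The block moved no other count of calls by over 1.5 times. With 1 mouse left out the counts ran from 0 to 5 in Cont females and from 0 to 2 in ATB females, those of the average over Cont and ATB females from 5 to 6, and the other counts of genes called in the reported direction did not move. The dim Mup3 (1435) probe gained a call as lower in males without the female Pxr+/+ ATB replicate 5 (adjusted p = 0.036) or the female Pxr-/- ATB replicate 1 (adjusted p = 0.046). Signs were followed for the sex differences of the member probes, their genotype differences in females, the sex dependence of the genotype effect of Mup1, Mup2 and Mup5, and Mup21 (695) in Cont males. Among these Mup3 changed sign, by differences near 0 that did not pass the test. With 1 mouse left out, the Cont female difference ran from -0.007 to 0.203 with Mup3 (831) and from -0.025 to 0.193 with Mup3 (549), in both below 0 without the Pxr+/+ Cont replicate 1. The ATB female difference with Mup3 (1435) ran from -0.124 to 0.044, and was above 0, at 0.044, 0.019 and 0.022, without the Pxr+/+ ATB replicate 1 or 6 or the Pxr-/- ATB replicate 1. The lower signal of Mup3 (1435) in Pxr+/+ Cont males lost its call with quantile normalization, the processed signal and normexp. The causes were not tested. No saturated spot occurred, so the alternative without such spots was not run.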
